A study of Mus musculus with 2 samples.

Results

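The 10 CC chemokine genes described here are Ccl2, Ccl3, Ccl4, Ccl5, Ccl6, Ccl7, Ccl9, Ccl12, Ccl22 and Ccl24, chosen by name among the 55536 mouse gene identifiers measured. All 10 symbols matched 1 identifier each. RNA came from nucleoplasm, which is what stays soluble when nuclei are opened, and the cells were primary macrophages grown from the bone marrow of C57BL/6J mice. The cells had been treated for 20 min with lipid A at 100 ng/ml. Lipid A is the membrane anchor of bacterial lipopolysaccharide, which macrophages sense through the receptor TLR4. Ribosomal RNA was depleted and the remaining total RNA was sequenced in 2 libraries, replicates 1 and 2 of this 1 group, and no unstimulated library was analysed here. Values therefore describe levels and how far the 2 libraries differ, and no change with lipid A was measured. Both replicates carry 1 donor identifier, and the labels leave unsaid if the cultures or mice differed, so n = 2 means 2 libraries. Age and sex were not collected. The starting amount of RNA was 1 µg for replicate 1 but 500 ng for replicate 2, so effects of input and of replicate cannot be told apart.

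Chemokines are small secreted proteins that guide the movement of leukocytes through G-protein-coupled receptors. In the CC class, 2 neighbouring cysteines stand near the start of the mature protein. Activated macrophages are a major source, and several CC chemokine genes are classical early targets of TLR4 signalling through NF-kB. Ccl2, Ccl7 and Ccl12 encode monocyte chemoattractant proteins that act on CCR2. Ccl3 and Ccl4 encode the macrophage inflammatory proteins 1-alpha and 1-beta, and Ccl5 encodes RANTES, attractants of monocytes and T cells. Ccl6 and Ccl9 are rodent genes whose products act on CCR1. Ccl22 encodes a ligand of CCR4, and Ccl24 encodes eotaxin-2, a ligand of CCR3.

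The paired cysteine codons that define the class are shown with 15 coding bases on each side, because they are the feature by which the members belong together; 9 of the 10 are given. Each line gives the coding strand of the first annotated protein-coding transcript in GENCODE M21 (mm10), with the cysteine codons in capitals.
Ccl2: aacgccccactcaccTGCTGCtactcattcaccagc
Ccl7: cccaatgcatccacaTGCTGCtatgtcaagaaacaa
Ccl12: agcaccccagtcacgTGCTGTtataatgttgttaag
Ccl4: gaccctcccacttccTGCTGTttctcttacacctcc
Ccl5: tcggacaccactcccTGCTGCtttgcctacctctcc
Ccl6: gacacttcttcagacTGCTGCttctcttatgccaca
Ccl9: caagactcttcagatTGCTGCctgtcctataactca
Ccl22: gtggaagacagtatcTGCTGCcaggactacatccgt
Ccl24: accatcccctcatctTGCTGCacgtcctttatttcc
The codon pair was TGC followed by TGC in 7 of these 9 members, and the second codon was TGT in Ccl4 and Ccl12. The window lies at chr11:82036491-82036526 on the plus strand in Ccl2 and at chr11:83663467-83663502 on the plus strand in Ccl4. The first cysteine was residue 33 to 36 of the translated sequence in 7 of them, residue 50 in Ccl6 and residue 57 in Ccl9. Over the 45 pairs of members, identity of the translated sequences ran from 17.7% to 59.1%, with a median of 28.4%. The most alike were Ccl3 and Ccl4 at 59.1%, Ccl7 and Ccl12 at 53.3%, and Ccl4 with Ccl5 and Ccl6 with Ccl9 at 50% each.

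This likeness nowhere reached 31 identical bases: no stretch of 31 bases in the annotated transcripts of any member also occurred in those of another member. Against all other genes, the transcripts of Ccl2, Ccl3, Ccl4, Ccl7, Ccl12 and Ccl22 shared no such stretch, and those of Ccl5, Ccl6 and Ccl24 shared from 0.0775% to 1.02% of theirs. Ccl9 shared 3.98% of its stretches with transcripts of 1918 other genes. The authors' posterior SD of the gene count, which measures how uncertain the sharing of ambiguous reads was, was 0 in both libraries for all 10 members, as it was for 73.1% of genes with at least 1 count in replicate 1 and 74.5% in replicate 2.

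Of the members, 8 lie in 2 groups on chromosome 11. Ccl2 (82035571 to 82037453), Ccl7 (82045712 to 82047525) and Ccl12 (82101845 to 82103400) lie on the plus strand within 67830 bases. Ccl5 (83525778 to 83530518), Ccl9 (83572919 to 83578636), Ccl6 (83587882 to 83593087) and Ccl3 (83647844 to 83649355) lie on the minus strand, and Ccl4 (83662584 to 83664683) lies on the plus strand, together within 138906 bases. Ccl24 is on the minus strand of chromosome 5 (135569937 to 135573049) and Ccl22 on the plus strand of chromosome 8 (94745590 to 94751699). The few other genes annotated among the members had few or no counts in the first of the authors' quantifications. Ccl11, which encodes the eosinophil attractant eotaxin and lies between Ccl7 and Ccl12, had 1 count in replicate 1 and 3 counts in replicate 2. Gm17268, annotated on the strand opposite Ccl2, had 0 counts in both. E230016K23Rik, a noncoding gene that spans Ccl6 on the opposite strand with no exon overlap, had 17 and 7 counts, against 840 and 968 counts on Ccl6 in replicates 1 and 2. In the second quantification E230016K23Rik had 82.9 and 108 counts. Rpl9-ps1, between Ccl6 and Ccl3, had 2 counts and 1 count. The sources used here do not give the strand setting of the counting.

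The libraries held 18194818 expected counts over mouse genes in replicate 1 and 18667509 in replicate 2. The members took 12576 of these counts (0.0691%) in replicate 1 and 9668 (0.0518%) in replicate 2. Expected counts are the authors' estimates of reads per gene, and TPM (a transcript abundance) divides them by transcript length and scales each library to the same sum, so levels of different genes are compared here as TPM. All 8 macrophage markers examined, such as Lyz2 and Csf1r, reached 1 TPM in both libraries, with medians of 223 and 234 TPM. In the first quantification, none of 7 neutrophil, 6 T and NK cell, 4 B cell, 4 stromal or 6 eosinophil, mast cell and basophil markers did so. Of 6 dendritic cell markers, Zbtb46 did, at 1.19 and 1.36 TPM. In the second quantification, 1 T and NK cell marker, Cd8a, reached 1 TPM in both libraries, at 1.03 and 1.6 TPM. There, 2 dendritic cell markers did so, Zbtb46 and Siglech, the latter at 1.03 and 1.32 TPM.

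Most of the CC chemokine genes were present at substantial levels in the nucleoplasm, and a pair of them had few counts in the first quantification. Of the 10 members, 8 reached 1 TPM in both libraries and Ccl22 and Ccl24 reached it in neither, while 44.9% of the 22015 nuclear-encoded protein-coding genes did so in both. The median TPM of the members was 56.4 in replicate 1 and 41.1 in replicate 2, beside 0.59 and 0.48 over all these coding genes. The members were chosen with earlier results of these data known, so these contrasts describe the list and test nothing. Ccl3, Ccl4 and Ccl9 together held 68.5% of the members' summed TPM in replicate 1 and 68.4% in replicate 2. In these bulk libraries, fewer cells with a transcript and less of it per cell cannot be told apart.

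**Figure D1:**
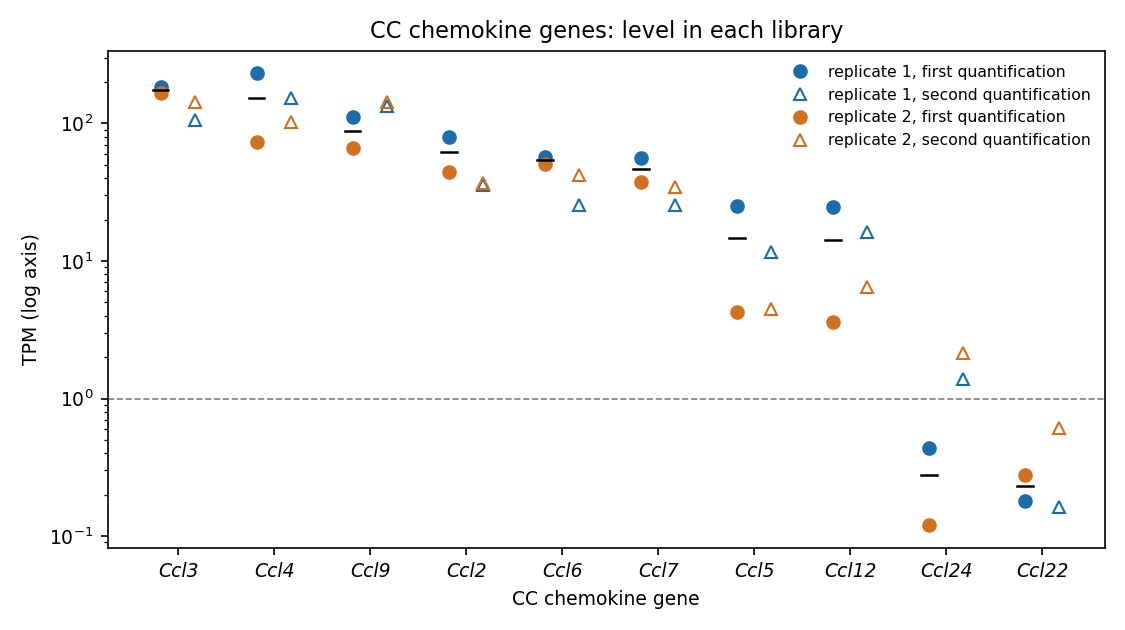
Level of each CC chemokine gene in TPM (log axis), ordered by mean, in replicate 1 (blue) and replicate 2 (orange). Filled circles are the first quantification with a bar at their mean, open triangles the second, and the dashed line marks 1 TPM. Ccl22 and Ccl24 are the members below 1 TPM in the first quantification, and Ccl4, Ccl5 and Ccl12 have the widest gaps between replicates among the other 8.

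The 2 macrophage inflammatory protein genes had the highest means in the first quantification. In the second, Ccl9 had the highest mean, 139 TPM, followed by Ccl4 at 128 TPM and Ccl3 at 124 TPM. Ccl3 had 185 TPM (replicate 1) and 165 TPM (replicate 2), a mean of 175 ± 13.8 TPM (SD, n = 2) that ranked 172 among the coding genes. Its counts were 1960 and 2177, so the 2 libraries lay close together. Ccl4 had 231 TPM (replicate 1) and 73.4 TPM (replicate 2), a mean of 152 ± 112 TPM (SD, n = 2), rank 213. Replicate 1 was thus far above replicate 2 for Ccl4, with 1989 and 788 counts. The order of the neighbouring genes turned over between the libraries: the TPM of Ccl3 was 0.799 times that of Ccl4 in replicate 1 and 2.25 times in replicate 2. Ccl5, the gene of RANTES, was lower, at 25 and 4.23 TPM, a mean of 14.6 ± 14.7 TPM (SD, n = 2). Its 161 counts in replicate 1 fell outside the exact Poisson 95% interval of the 37 counts in replicate 2 (26.1 to 51), an interval that covers counting error only.

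Of the genes for CCR1 ligands, Ccl9 had the most counts of any member, 5762 in replicate 1 and 4314 in replicate 2. Because its coding transcript is 3006 bases long, its level was 111 and 66.3 TPM, a mean of 88.7 ± 31.6 TPM (SD, n = 2). Ccl6 was at 57 and 50.7 TPM, a mean of 53.8 ± 4.41 TPM (SD, n = 2), and its libraries were among the closest of the set. Ccl9 was above Ccl6 in both libraries, by 1.95 times in replicate 1 and 1.31 times in replicate 2, and by 5.24 and 3.39 times in the second quantification.

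The genes for CCR2 ligands covered a wider range. Ccl2 had 79.2 TPM (replicate 1) and 44.6 TPM (replicate 2), with 1067 and 814 counts. Ccl7, its neighbour on the chromosome, was at 55.9 and 37.6 TPM, with 631 and 526 counts. The ratio of Ccl2 to Ccl7 was alike in the 2 libraries, 1.42 and 1.19. Ccl12, the third gene of that group, was at 24.7 TPM (154 counts) in replicate 1 and 3.62 TPM (28 counts, 95% interval 18.6 to 40.5) in replicate 2. Ccl2 exceeded Ccl12 by 3.21 times in replicate 1 and 12.3 times in replicate 2, so Ccl12 did not keep a fixed proportion to its neighbours.

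Ccl22 and Ccl24 were near the limit of detection in the first quantification. Ccl22 had 7 counts in replicate 1 (95% interval 2.81 to 14.4) and 13 in replicate 2 (6.92 to 22.2), or 0.18 and 0.28 TPM. Ccl24 had 5 counts (1.62 to 11.7) and 3 counts (0.619 to 8.77), or 0.44 and 0.12 TPM. Intervals of the replicates overlapped for each gene, and a difference between the libraries was not detectable at this depth.

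Ordered by mean TPM, the members ran Ccl3, Ccl4, Ccl9, Ccl2, Ccl6, Ccl7, Ccl5, Ccl12, Ccl24 and Ccl22. The ranges of the 2 libraries overlapped between every pair of neighbours in this order except Ccl7 over Ccl5 and Ccl12 over Ccl24. The levels thus formed 3 tiers, 6 genes with means from 46.8 to 175 TPM, Ccl5 and Ccl12 at 14.6 and 14.2 TPM, and the pair below 1 TPM.

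The second quantification, made by the authors from the same reads with another program, also had those 6 genes highest in each library, Ccl12 and Ccl5 next, and Ccl24 and Ccl22 lowest, although levels within these tiers moved. It gave Ccl3 105 TPM (replicate 1) and 142 TPM (replicate 2), Ccl4 152 and 103 TPM, and Ccl9 133 and 144 TPM. Its counts were higher than those of the first by 1.33 to 3.46 times in the 9 members other than Ccl24, beside medians of 1.35 times in replicate 1 and 1.59 times in replicate 2 over coding genes with at least 1 TPM from each program. Ccl24 stood apart, with 93 and 107 counts in the second quantification against 5 and 3 in the first, 18.6 and 35.7 times as many, which brought it to 1.39 and 2.15 TPM. Among coding genes with 3 to 20 counts in the first quantification, a gap at least as large as that of Ccl24 was found for 11% in replicate 1 and 7.06% in replicate 2. The cause was not tested, and a level for Ccl24 cannot be settled from these tables.

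The 2 libraries were next compared gene by gene. Counts were scaled for library size and composition by TMM (trimmed mean of M-values, which sets the typical gene to no difference), and the log2 ratio of replicate 2 over replicate 1 was given an exact binomial 95% interval. A gene was called when it was over 2-fold apart with an interval clear of 0. This compares 2 libraries and not 2 conditions, and the intervals cover counting error only. Genes entered with a scaled count averaging at least 10, which 9 members met and Ccl24 did not. Of these 9, 3 were called lower in replicate 2 (Ccl4, Ccl5 and Ccl12) and 0 higher. Of all 15557 genes compared, 3.66% were called lower and 4.36% higher, together 8.02%. Without the 2-fold limit, the interval lay below 0 for 6 members, beside 25.6% of all genes, and above 0 for 2 (Ccl3 and Ccl6), beside 24.5%. Intervals are narrower at high counts. The members with a clear interval had mean scaled counts from 89.7 to 5024, while all genes compared start at 10, so these shares are not matched for depth. The median log2 ratio was -0.33 over the 9 members and 0.00 over all genes, whose central 80% ran from -0.63 to 0.70.

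**Figure D2:**
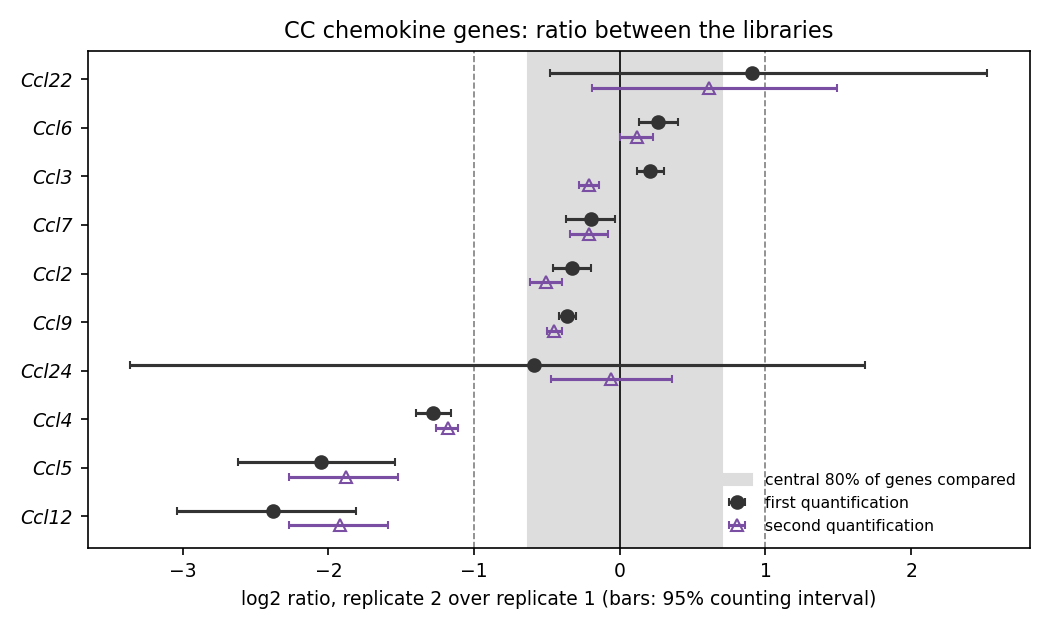
Log2 ratio of replicate 2 over replicate 1 for each CC chemokine gene, with 95% counting intervals, from the first (circles) and the second quantification (triangles). Grey marks the central 80% of all genes compared, from -0.63 to 0.70, and dashed lines mark 2-fold. Ccl4, Ccl5 and Ccl12 lie beyond 2-fold lower in both quantifications, while Ccl3 lies on opposite sides of 0.

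Ccl12 had the lowest ratio, a log2 value of -2.38 (-3.04 to -1.81), which is 5.2-fold lower in replicate 2. Ccl5 followed at -2.05 (-2.62 to -1.54), 4.13-fold lower, and Ccl4 at -1.28 (-1.40 to -1.16), 2.42-fold lower. The second quantification also called these 3 members lower, at -1.92, -1.88 and -1.18, beside 4.27% of its 24466 genes. They lie in both groups on chromosome 11, and their nearest members did not share the size of the difference. Beside Ccl4, Ccl3 was at 0.21 (0.12 to 0.30), and beside Ccl12, Ccl7 was at -0.20 (-0.37 to -0.03). Ccl2 was at -0.33 (-0.46 to -0.20), Ccl9 at -0.36 (-0.42 to -0.30) and Ccl6 at 0.26 (0.13 to 0.40), all under 2-fold. The ratio of Ccl3 was on the other side of 0 in the second quantification, at -0.21, so its direction was not settled. The marker genes of macrophages had a median log2 ratio of 0.16, with 0 of 8 called. The 4 dendritic cell markers in the comparison had a median log2 ratio of 0.15. Only 1 of them was below 0, and it was called lower in replicate 2: Clec9a. Named after its value was seen, Clec9a had 49 and 22 counts, or 1.04 and 0.31 TPM. The summed TPM of the 6 dendritic cell markers was 3.28 in replicate 1 and 2.83 in replicate 2. The part of these cells and of RNA input in the ratios was not tested. TPM itself ran lower in replicate 2 by a median of 0.35 on the log2 scale over all genes (median log2 ratio -0.35). The TPM gaps of the members and of the dendritic cell markers, and the gap in their sum, include this.

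Because the RNA was nuclear, reads were also assigned to annotated transcripts that keep introns. The end of the exon before the second intron is shown for the 3 members with such a transcript across that boundary. Each is given spliced and then unspliced, with the intron bases in capitals, since reads over these bases tell these annotated forms apart. Precursor RNA not yet spliced holds the same boundary, so such reads do not separate it from an annotated retained-intron transcript.
Ccl2-201, spliced: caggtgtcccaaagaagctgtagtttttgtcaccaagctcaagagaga
Ccl2-202, intron kept: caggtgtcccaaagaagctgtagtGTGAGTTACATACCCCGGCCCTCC
Ccl5-201, spliced: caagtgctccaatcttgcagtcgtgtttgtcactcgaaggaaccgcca
Ccl5-202, intron kept: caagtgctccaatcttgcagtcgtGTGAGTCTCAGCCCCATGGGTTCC
Ccl6-201, spliced: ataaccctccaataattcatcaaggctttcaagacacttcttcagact
Ccl6-203, intron kept: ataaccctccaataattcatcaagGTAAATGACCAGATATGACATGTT
The unspliced windows are chr11:82036577-82036624 on the plus strand, chr11:83529132-83529179 on the minus strand and chr11:83589733-83589780 on the minus strand (mm10). Ccl2-202 holds all 325 bases of its second intron, Ccl5-202 holds 428 of 3091 bases, and Ccl6-203 holds 284 of 342 bases. Ccl3, Ccl4 and Ccl7 have 1 annotated transcript each, which is coding, and Ccl24 has coding ones only. Intron-holding RNA of these 4 genes thus could not appear as a separate form. Reads from its exons would count towards the coding transcripts, so their counts do not show how much was spliced.

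The reads of Ccl2 were divided between its spliced form and the form that keeps the intron. The retained-intron transcript Ccl2-202 took 45.6% of the counts of Ccl2 in replicate 1 and 69.2% in replicate 2, or 36.4% and 60.6% of its TPM. The medians over 8467 coding genes with a non-coding transcript were 20.1% and 20.8% of counts and 36.6% and 37.6% of TPM. By TPM, Ccl2 was thus at the median in replicate 1 and above it in replicate 2. In the second quantification its share of TPM was 33.1% and 49.7%, beside medians of 48.8% and 49.4%. By TPM, a share above that of the typical gene thus did not hold in both tables. By counts, its share in the second quantification was 42.2% and 58.8%, beside medians of 27.7% and 28.6%. The share of counts was thus above the median in both libraries of both quantifications, but counts are not corrected for length. Ccl2-202 is 1096 bases long against 813 for Ccl2-201, so its share of counts exceeded its share of TPM. The medians over genes ran the other way, lower by counts than by TPM. The spliced form Ccl2-201 had 580 counts in replicate 1 and 251 in replicate 2, with a posterior SD of 16.44 and 10.47 counts. The retained-intron form had 487 and 563 counts with the same posterior SDs. On the log2 scale the spliced form was thus at -1.15 (-1.37 to -0.93) and the retained-intron form at 0.27 (0.09 to 0.45), so the mild difference of the whole gene combined a lower spliced form with a retained-intron form that was not lower. In the second quantification the spliced form had 879 counts in replicate 1 and 524 in replicate 2, and the retained-intron form 641 and 749, a log2 ratio of -0.03 for the retained-intron form after scaling. The intervals do not cover how reads common to both forms were divided.

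The reads of Ccl5 were fewer, and its share on the intron-holding form was also higher in replicate 2. Its spliced form Ccl5-201 had 138 counts in replicate 1 and 22.7 in replicate 2, and its retained-intron form Ccl5-202 had 23 and 14.3. The log2 ratios were -2.50 (-3.23 to -1.88) for the spliced and -0.64 (-1.73 to 0.36) for the retained-intron form, the interval of which includes 0. In the second quantification they were -2.32 for the spliced and -1.27 for the retained-intron form, so both forms were lower there. The retained-intron share of counts was 14.3% in replicate 1 and 38.5% in replicate 2, and 33.5% and 51.5% in the second quantification.

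For Ccl6 the summed share on intron-holding forms was lower in replicate 2, while that of Ccl6-203 alone was higher. Its coding form Ccl6-201 had 538 counts in replicate 1 and 750 in replicate 2, a log2 ratio of 0.54 (0.38 to 0.70). Ccl6-202, which starts inside the first intron, had 256 and 135 counts, a log2 ratio of -0.86 (-1.18 to -0.56), and Ccl6-203 had 46 and 83.2 counts, at 0.90 (0.37 to 1.46). The retained-intron forms together took 35.9% and 22.5% of the counts of Ccl6, and 59.6% and 48.6% of its TPM, since they are shorter than the coding form. In the second quantification they took 47.3% and 35.1% of counts and 69.4% and 60.8% of TPM. The posterior SDs were near 22 counts for Ccl6-201 and Ccl6-202, and they cover the first program only. The second gave Ccl6-202 468 counts in replicate 1 and 364 in replicate 2, against 256 and 135 in the first. The assignment of reads to Ccl6-202 was thus not settled.

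For Ccl9 and Ccl12 the 2 quantifications gave different transcript shares. The processed transcript Ccl9-202 had 10.4 counts in replicate 1 and 0 in replicate 2 in the first quantification, and 1113 and 971 in the second. Being 398 bases long against 3006, it took 71.2% and 68.2% of the TPM of Ccl9 in the second quantification, against 2.58% and 0% in the first. Of its 368 stretches of 31 bases, 39 were not also in Ccl9-201. Ccl12-202, also a processed transcript, had 4.19 and 2.81 counts in the first quantification and 81.8 and 35.5 in the second, and 27 of its 451 stretches were not in Ccl12-201. The cause of these gaps was not tested, and no split between the forms of either gene holds in both tables.

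**Figure D3:**
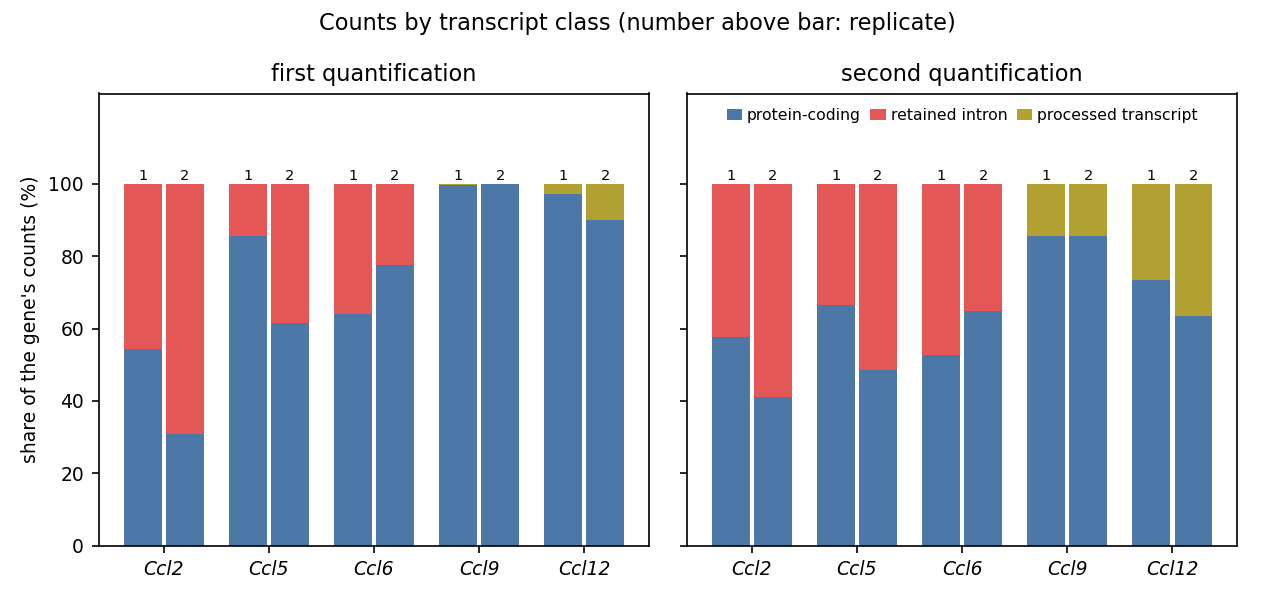
Share of each gene's counts on protein-coding, retained-intron and processed transcripts in replicates 1 and 2, in the first (left) and second quantification (right). The retained-intron share of Ccl2 is higher in replicate 2 than in replicate 1 in both panels, and the processed-transcript shares of Ccl9 and Ccl12 are larger on the right.

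Other CC chemokine ligand genes were mostly below 1 TPM. This list and the members were both chosen with earlier results of these data known, so the contrast between them is a description only. Of 11 listed, 2 reached 1 TPM in both libraries and 5 had 0 counts in both (Ccl17, Ccl19, Ccl20, Ccl21a and Ccl26) in the first quantification, which allows up to 0.165 CPM (counts scaled to library size) in replicate 1 and 0.161 CPM in replicate 2. Ccl25, which encodes a ligand of CCR9 known from thymus and small intestine, was the highest, at 19 and 23.1 TPM with 696 and 1130 counts. Ccl8, which encodes another monocyte chemoattractant protein, was at 2.6 and 0.96 TPM, and Ccl27a at 1.18 and 1.17 TPM. In the second quantification, 1 of the 11 reached 1 TPM in both libraries, Ccl25 at 8.32 and 18.2 TPM. Ccl27a was at 0.493 and 1.21 TPM there, and Ccl17 had 4 counts and 1 count. Of the 4 genes of this list in the comparison of libraries, 0 were called, beside 8.02% of all genes compared.

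Of 15 CC chemokine receptor genes described, 6 reached 1 TPM in both libraries and 5 had 0 counts in both (Ackr1, Ackr2, Ackr3, Ccr6 and Ccr8) in the first quantification. In the second, 4 reached 1 TPM in both, Ackr3 had 19 and 13 counts, and Ccr6 had 7.99 and 6.68. The highest was Ccrl2, an atypical receptor that binds chemerin, at 117 and 75 TPM. Ccr1, the receptor of the Ccl6 and Ccl9 products, was at 13 and 17.1 TPM. Ccr2, the receptor of the Ccl2, Ccl7 and Ccl12 products, was at 4.22 and 4.69 TPM. Receptors of Ccl24 and Ccl22 products, named for these ligands after the values were seen, were lower, with Ccr3 at 2.18 and 1.38 TPM and Ccr4 at 0.16 and 0.12 TPM. None of the 9 receptor genes in the comparison of libraries was called, beside 8.02% of all genes compared.

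All 20 genes of signalling below chemokine receptors reached 1 TPM in both libraries, beside 44.9% of nuclear-encoded protein-coding genes. This list too was chosen with earlier results of these data known. Rgs1, whose product switches off G-protein alpha subunits, was the highest at 254 and 192 TPM. Dock2, the exchange factor that activates Rac in migrating leukocytes, was at 202 and 121 TPM, and Arrb2, which encodes a beta-arrestin, at 165 and 112 TPM. The lowest was Grk5, a G-protein-coupled receptor kinase gene, at 3.73 and 2.36 TPM. In the comparison of libraries, 0 of the 20 were called lower and 1 higher in replicate 2, beside 3.66% and 4.36% of all genes compared. The called gene was Rgs2, another regulator of G-protein signalling, named after its value was seen. Rgs2 had 721 and 2138 counts, a log2 ratio of 1.63 (1.51 to 1.75).

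**Figure D4:**
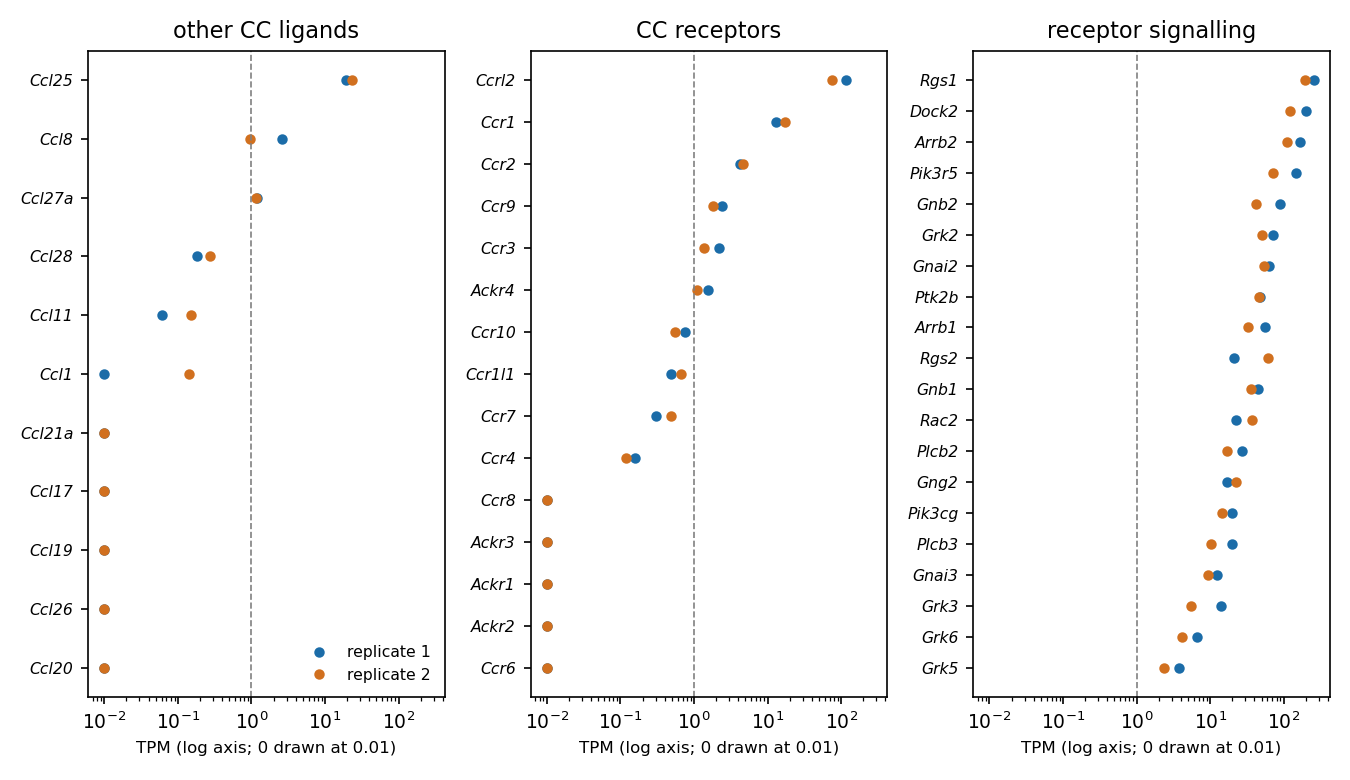
TPM (log axis, 0 drawn at 0.01) of the other CC ligand, CC receptor and receptor signalling genes in replicate 1 (blue) and replicate 2 (orange), ordered by mean, with a dashed line at 1 TPM. Values are from the first quantification. All 20 signalling genes lie above the line in both libraries, against 6 of 15 receptors and 2 of 11 other ligands.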

How the data were processed

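The authors deposited expected counts, TPM, posterior-mean TPM and the posterior standard deviation of the count per gene and transcript, with the column names of RSEM, and estimated counts and TPM per transcript with those of kallisto, per the file headers. The assembly was mm10 with GENCODE M21, per the deposited notes. The sources used here give no versions, filters or strand setting. Entries that are no mouse gene (0.823% and 0.207% of counts) were left out. Expected counts were rounded, and edgeR 4.0.16 under R 4.3.3 gave TMM factors. Log2 ratios had a prior count of 0.5 and were checked on simulated counts. These had counting error only, so the check does not cover the spread between libraries. Calculations used Python 3.11.15, scipy 1.17.1 and matplotlib 3.10.9. With 1 group, no test between groups was possible. Intervals cover counting error only, because they hold no term for variation between replicates. They also treat reads as independent, which PCR reads lacking molecular identifiers are not. Transcript classes, coding sequences and boundaries came from GENCODE M21, and the cysteine pair was taken where further cysteines follow at the spacing of the family. The members and lists were chosen with earlier results of these data known. A receptor gene and a sequence window are not reported here. The named genes were all members and, of the ligand, receptor and signalling lists, the 3 highest by mean TPM and the lowest. Genes named outside this rule were chosen after their values were seen, except the neighbours on the chromosome, which are all given, and genes listed at 0. Alternatives were DESeq2 1.42.0 size factors, library totals, other minimums, TPM ratios, posterior-mean or rescaled TPM, the kallisto-type table, and each library left out in turn.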

Additional observations from a re-analysis of the deposited data

How the results depend on the processing

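The number of members at 1 TPM in both libraries was 8, and from 6 to 9 under a minimum of 0.5 or 5 TPM, posterior-mean TPM and the second quantification. It was 8 with either library alone. The median TPM of the members was 48.8 ± 10.8 (SD, n = 2), between 41.1 and 56.4 with either library alone, 46.2 by posterior-mean TPM and 30.6 in the second quantification. The median log2 ratio of the members was -0.36 with DESeq2 size factors, -0.43 with library totals, -0.45 in the second quantification and -0.74 from TPM with a pseudocount of 0.1, while the median of all genes moved to -0.03, -0.09, -0.06 and -0.35. The count of 3 members called lower was 1 (Ccl4) with a mean scaled count of at least 100, which by construction leaves out Ccl5 and Ccl12, and 3 under the other alternatives run. The log2 ratio of Ccl3 became -0.21 in the second quantification and -0.16 from TPM, and that of Ccl6 became -0.17 from TPM. TPM rescaled over nuclear-encoded protein-coding genes raised all 10 levels by construction, such as Ccl3 to 707 TPM against 175 TPM, Ccl4 to 572 against 152 TPM and Ccl2 to 242 against 61.9 TPM. The mean share of Ccl6 on transcripts not annotated as coding was 54.1% by TPM, 29.2% by counts and 65.1% in the second quantification. It was 1.29% by TPM and 69.7% in the second quantification for Ccl9, and 7.56% and 35.4% for Ccl12. No paired analysis was possible because there is 1 group. Depth limits Ccl22, with 7 and 13 counts, while the counts of Ccl24 differed between the quantifications.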
